A study of Mus musculus with 9 samples.

Results

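Enteric neurons and glia are represented here by 31 genes of the enteric nervous system, picked by name from what is known of these cells and matched by symbol to the deposited table. The list was made with earlier results of these data known, so counts over it are descriptions and no tests. All 31 were found among its 54491 rows. They comprise 5 glial genes, 4 regulators and receptors of the neural crest lineage, 12 genes shared by most neurons, and 10 genes for neurotransmitters, neuropeptides or neuron subtypes. RNA of mouse colon was sequenced in 9 libraries, 3 in each of 3 groups of C57BL/6 mice that entered the study at 6 weeks of age, with 15 mice in each group, and whose tissue was taken at postnatal day 98. Replicates 1, 2 and 3 formed the control group. Replicates 1, 2 and 4 came from mice fed a high-fat diet (HFD). Replicates 1, 3 and 4 came from mice that were fed the HFD and were also given Papillibacter cinnamivorans, a bacterium of the gut, through a tube passed into the stomach (gavage; called the gavaged group). The labels name gavage in the third group only, so gavage itself and the bacterium cannot be told apart. They do not give the stretch of colon that was cut, and whether libraries of a group came from separate mice is not stated, so p-values measure the spread between these libraries, which may be technical. Values are FPKM, fragments scaled by transcript length and library size, so that levels can be set beside each other between genes.

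The enteric nervous system lies in the gut wall as 2 linked networks, the myenteric plexus between the muscle layers and the submucosal plexus beneath the mucosa. Its neurons and glia descend from neural crest cells that colonise the gut under the control of RET and endothelin receptor B signalling and of transcription factors such as SOX10, PHOX2A and HAND2. In the colon, neurons that release acetylcholine and tachykinins excite the muscle, neurons that release nitric oxide and vasoactive intestinal peptide relax it, and enteric glia surround the neurons and send processes into the mucosa.

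The markers bear out the label for neurons and in part for glia. The neuronal genes Elavl4, Tubb3, Uchl1, Snap25 and Prph were present in each of the 9 libraries, the lowest single value being 1.49 FPKM for Elavl4, while Elavl3 was low throughout, at 0.283 to 1.2 FPKM. Of the glial genes, Gfap lay between 0.714 and 3.04 FPKM, S100b between 1.92 and 8.29 and Sox10 between 1.7 and 6.61. Erbb3, the neuregulin receptor of glia, had by far the highest mean over the 9 libraries of the 31 genes, at 71.8 FPKM against 29.3 for the next, Uchl1. Gut epithelium is also known to express Erbb3, and Entpd2 is known in other cells of the gut wall, so these levels cannot be assigned to glia alone. Mag, a myelin gene of the Schwann cells of incoming nerves and not of enteric glia, stood at 0 to 0.131 FPKM.

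Promoter sequence was at hand for 21 of the 31 genes, as the 250 bases before the start site (RefSeq, build GRCm38.p6). Several neuropeptide genes are known to carry a cAMP response element, whose half-site is TGACG and whose full palindrome is TGACGTCA. Searched on both strands, where it reads CGTCA on the printed strand when it lies on the other, the half-site was found in 9 of the 21 promoters and in 17.9% of 27025 promoters of the same length. The full palindrome, which contains the half-site on each strand, was found in 1 of the 21, that of Th, and in 1.62% of all. Gfap (chr11:102897201-102897450, minus strand) and Gal (chr19:3414545-3414794, minus strand), whose calls for HFD against control and for gavaged against HFD held under all 19 alternative settings, have no half-site in these 250 bases. Tac1 (chr6:7554811-7555060, plus strand) has half-sites that start 197 and 43 bases before the start site, both on the other strand, and Vip (chr10:5638968-5639217, plus strand), whose values ran unlike those of the other peptides, has a half-site 79 bases before it. The 4 sequences are shown 5′ to 3′ on the strand of the gene, with half-sites in capitals.
Gfap: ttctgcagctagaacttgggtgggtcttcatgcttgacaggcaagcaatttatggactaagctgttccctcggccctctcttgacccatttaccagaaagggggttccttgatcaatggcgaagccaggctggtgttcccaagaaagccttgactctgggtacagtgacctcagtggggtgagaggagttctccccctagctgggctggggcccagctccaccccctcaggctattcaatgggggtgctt
Gal: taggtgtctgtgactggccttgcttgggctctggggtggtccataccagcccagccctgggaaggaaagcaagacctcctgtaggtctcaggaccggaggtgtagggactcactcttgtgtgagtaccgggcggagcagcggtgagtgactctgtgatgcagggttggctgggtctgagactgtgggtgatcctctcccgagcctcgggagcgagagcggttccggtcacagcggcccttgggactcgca
Tac1: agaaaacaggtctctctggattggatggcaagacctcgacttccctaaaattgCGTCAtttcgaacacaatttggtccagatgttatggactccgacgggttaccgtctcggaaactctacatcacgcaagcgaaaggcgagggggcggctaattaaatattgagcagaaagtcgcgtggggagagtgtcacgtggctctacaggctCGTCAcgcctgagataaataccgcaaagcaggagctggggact
Vip: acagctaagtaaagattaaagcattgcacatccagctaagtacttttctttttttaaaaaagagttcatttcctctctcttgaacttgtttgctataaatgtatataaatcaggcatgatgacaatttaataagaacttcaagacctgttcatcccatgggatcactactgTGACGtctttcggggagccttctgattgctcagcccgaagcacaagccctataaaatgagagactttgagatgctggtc
A match describes the letters in this window and is no evidence of binding.

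Some properties of the libraries touch every value below. Over all genes the 3 HFD libraries stood apart on the first principal component (scores 59.6 to 62.7, against -39.6 to -12.6 in the other 6), and control replicate 1 stood apart on the second (62.9, against -20.9 to 6.4). Control replicate 1 held much more smooth muscle RNA than any other library, with 7120 FPKM summed over 10 muscle genes against 1370 to 3340 in the other 8. Hox genes, which mark position along the gut, also set the HFD libraries apart: Hoxd13 stood at 72.6 to 94.3 FPKM in the HFD libraries and at 0 to 0.45 in the other 6, while Hoxb6 stood at 0.937 to 1.34 against 6.08 to 64.2. Of the other 6, control replicate 1 lay nearest to HFD in Hoxa13 (26 FPKM, against 31.3 to 36 in HFD and 0.385 to 10.1 in the rest). The same held for Hoxb6 (6.08, against 23.6 to 64.2 in the rest) and Hoxb8 (2.1, against 12.6 to 19.6). For Hoxb5 it did not, at 9.9 against 8.74 in gavaged replicate 3. Whether the pieces came from different stretches of colon was not tested, and no label bears on it. Control replicate 1 was the highest of its group in 28 of the 31 genes, and replicate 1 of the gavaged group was the highest of its group in 24. The deepest library was 1.34 times as deep as the shallowest.

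On the HFD, 15 of the 28 tested genes of enteric neurons and glia were lower than in control and none was higher (limma, adjusted p below 0.05), beside 9.11% of all 17907 tested genes called lower and 10.6% called higher. The 15 were the glial genes Gfap and Erbb3, the lineage genes Phox2a and Hand2, the neuronal genes Tubb3, Uchl1, Prph, Stmn2, Stmn3 and Gap43, and the transmitter genes Gal, Penk, Tac1, Calb2 and Slc18a3. The median difference over the 28 was -0.92 on the log2(FPKM + 1) scale, against -0.001 over all tested genes, and Vip alone lay above 0 (after TPM scaling Entpd2 also lay marginally above it, at 0.00). In 21 of the 31 genes every HFD library was below every control library, as in 20.1% of all tested genes. In tissue RNA, fewer cells of a type and less RNA per cell cannot be told apart. The count depended on the libraries in the fit: it was 7 without control replicate 2, 5 without HFD replicate 1, 4 without HFD replicate 2 and 3 without HFD replicate 4, and Gfap, Tubb3 and Gal were called each time. The number of all genes called fell in the same fits, from 3535 to 2234, 1718, 1858 and 1612, while the median over the tested genes of the 31 was -0.96, -0.93, -0.91 and -0.88. Without control replicate 1, the muscle-rich library, 12 genes were called lower, Vip was called higher, and the median was -0.68. In that fit 4527 of all 17624 tested genes were called, 47.4% of them higher, in place of 3535 with 53.8% higher.

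In the gavaged group, 9 of the 28 tested genes were higher than in the HFD group and none was lower, beside 4.54% of all tested genes called higher and 7.6% called lower. They were Gfap and S100b in glia, the receptor gene Ednrb, the neuronal genes Tubb3, Uchl1, Snap25 and Stmn3, and the transmitter genes Gal and Calb2. The median over the 28 was 0.82, against -0.014 over all tested genes. In 25 of the 31 genes every gavaged library was above every HFD library, as in 18.7% of all tested genes, and in 1, Npy, every gavaged library was below, as in 20.3%. The count was 21 without control replicate 1 and 5 without control replicate 2. Control libraries enter this comparison through the shared estimate of the spread and the filter on low values. Without control replicate 1, 17624 genes were tested in place of 17907, and the number of all genes called rose from 2174 to 3603. The count among the 28 was 2, Gfap and Gal, without any one of HFD replicates 1, 2 and 4 or of gavaged replicates 1 and 4. The number of all genes called in these fits was 991, 1004, 1202, 1291 and 1419. This comparison shares its 3 HFD libraries with the one before, so that an HFD library that is low by itself enters both.

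Between the gavaged and the control group, 0 of the 28 tested genes were called by limma, where 0.262% of all tested genes were called higher and 0.843% lower. Gfap alone had an unadjusted p below 0.05, and the median over the 28 was -0.04. In 2 of the 31 genes every gavaged library was above every control library, as in 9.86% of all tested genes, and in 0 was every one below, as in 11.9%. The spread was wide enough that this does not show equal levels: the 95% interval of the difference ran from -0.51 to 1.50 for Gal and from -1.56 to 0.24 for Hand2. Without control replicate 1, Gfap (0.47, limma adjusted p = 0.048) and Vip (1.38, limma adjusted p = 0.028) were called higher. In that fit 1187 of all 17624 tested genes were called, 27% of them higher, in place of 198.

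**Figure D1:**
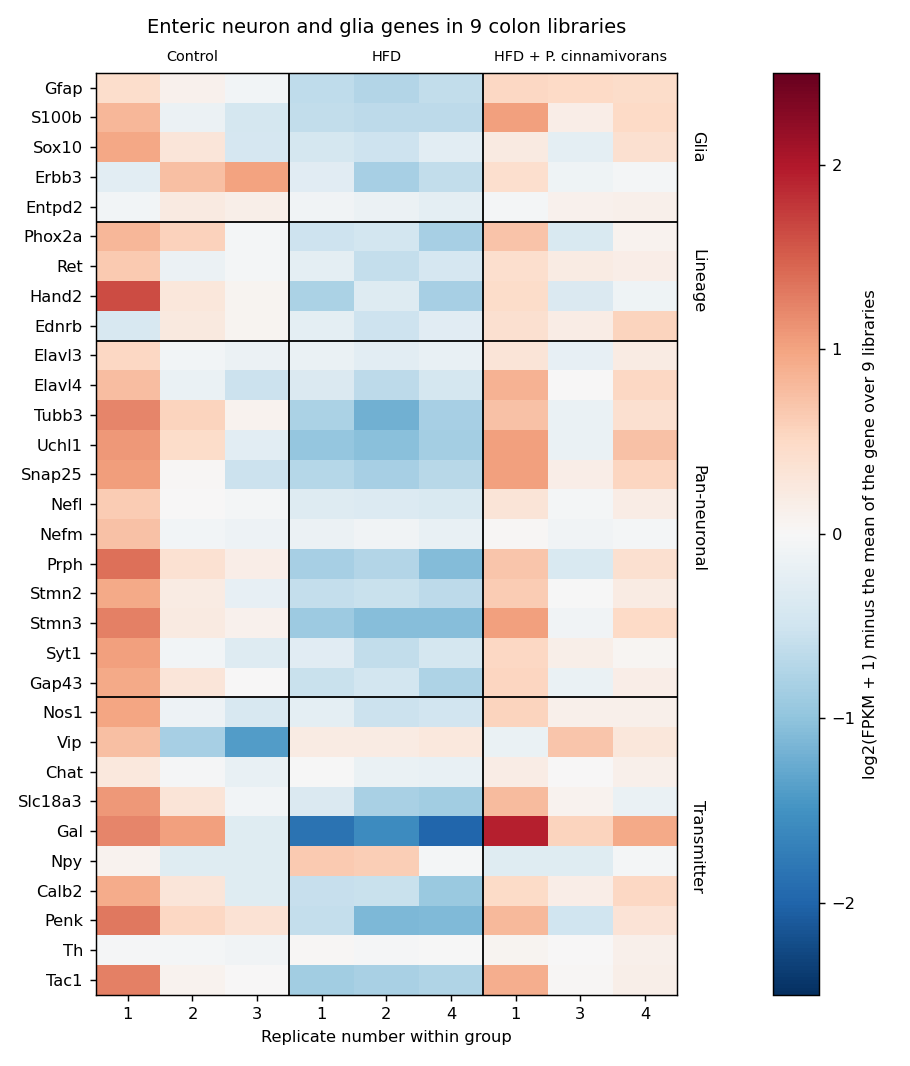
Level of each of the 31 genes in each library, as log2(FPKM + 1) minus the mean of that gene over the 9 libraries (colour scale), with genes grouped by role and libraries by group. Gal has the widest range of the 31, and Vip, Npy and Th do not have their lowest values in the HFD libraries.

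Scaling of the libraries moved the median over all genes. When each library was scaled to the same sum (TPM scaling), the median over all tested genes went from -0.001 to 0.240 and that over the 28 from -0.92 to -0.78, and the share of called genes that were higher went from 53.8% to 78.2%. With mitochondrially encoded and immunoglobulin genes removed before such scaling, these values were 0.213, -0.82 and 75.9%. In each of these scalings 7 of the 28 genes were called lower and 0 higher, and Gfap, Tubb3, Prph, Stmn3, Gal and Penk were among them in both. For the gavaged against the HFD group, TPM scaling gave a median of -0.200 over all tested genes and 0.79 over the 28, a share of 25.3% higher among called genes in place of 37.4%, and 5 genes called.

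Among the glial genes, Gfap, the intermediate filament of glial processes, had little spread within the HFD and gavaged groups. It stood at 2.84, 2.05 and 1.71 FPKM in control replicates 1, 2 and 3, at 0.834, 0.714 and 0.853 in HFD replicates 1, 2 and 4, and at 3.04, 3.02 and 2.91 in gavaged replicates 1, 3 and 4. The 3 groups did not overlap, the HFD libraries being lowest and the gavaged ones highest. The difference was -0.82 (SE 0.14, limma adjusted p = 0.0052) between HFD and control and 1.15 (SE 0.14, limma adjusted p = 0.0012) between gavaged and HFD, and both calls held under all 19 alternative settings. These values rest on 54 to 216 fragments per library.

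S100b, which encodes a calcium-binding protein of glia, was measured at 7.13, 3.16 and 2.36 FPKM in control, 1.98, 1.92 and 1.92 in HFD and 8.29, 4.12 and 5.48 in the gavaged group. The HFD libraries were the lowest and nearly equal, whereas each other group spanned a wide range. Only the difference between gavaged and HFD was called (1.20, SE 0.32, limma adjusted p = 0.044), while that between HFD and control was -0.72 (SE 0.32, limma adjusted p = 0.15). Sox10, the transcription factor that maintains glia, stood at 6.61, 3.78 and 1.91 FPKM in control, 1.85, 1.7 and 2.23 in HFD and 3.56, 2.26 and 4.1 in the gavaged group. Control replicate 3 lay within the HFD range, and neither difference was called (-0.70 and 0.54, both with SE 0.32; limma adjusted p = 0.16 and 0.32).

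Erbb3 followed another order, with 54.8, 112 and 133 FPKM in control, 53.9, 36.7 and 42.5 in HFD and 88.2, 61.3 and 63.9 in the gavaged group. Control replicate 1 was the lowest control here, where it was the highest for the other glial genes except Entpd2. The summed level of 8 epithelial genes ran in the same order among the controls, at 4660, 8010 and 8990 FPKM, and was 5020, 5770 and 5170 in HFD and 5590, 5300 and 4600 in the gavaged group. Erbb3 was lower in HFD than in control (-1.08, SE 0.32, limma adjusted p = 0.045), and the part of epithelium in this was not tested. This call held in 1 of 9 fits with 1 library left out. Entpd2, an enzyme that breaks down extracellular ATP, stayed between 8.7 and 12.4 FPKM and was not called in any comparison. Its difference between HFD and control was -0.25 (SE 0.12, limma adjusted p = 0.16) and 0.00 after TPM scaling.

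The lineage genes divided into transcription factors and receptors. Hand2, a factor for enteric neuron differentiation, stood at 24.5, 8.98 and 7.61 FPKM in control, 3.77, 5.57 and 3.62 in HFD and 10.4, 5.41 and 6.63 in the gavaged group. It was lower in HFD than in control (-1.31, SE 0.40, limma adjusted p = 0.049), at the edge of the threshold. The call held in 2 of 9 fits with 1 library left out. Among the control and among the gavaged libraries, Hand2 values ran in the order of the summed muscle genes. Among the HFD libraries they did not, and the part of muscle in this was not tested. Phox2a, a factor of autonomic neurons, stood at 4.42, 3.5 and 1.95 FPKM in control, 1.13, 1.21 and 0.702 in HFD and 3.97, 1.33 and 2.24 in the gavaged group, and was also lower in HFD than in control (-1.06, SE 0.30, limma adjusted p = 0.041). For neither factor was the difference between gavaged and HFD called (0.65 and 0.74, limma adjusted p = 0.34 and 0.15).

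The receptors differed less between HFD and control. Ret, the receptor tyrosine kinase for GDNF-family ligands, had 5.43, 2.74 and 2.97 FPKM in control, 2.48, 1.73 and 2.09 in HFD and 4.49, 3.74 and 3.61 in the gavaged group. Every HFD library was below every library of the other groups, but no difference was called (-0.57 and 0.68, SE 0.21 each, limma adjusted p = 0.089 and 0.07). Ednrb, the receptor for endothelin 3 in migrating crest cells, had 3.49, 6.06 and 5.26 FPKM in control, 4, 3.12 and 3.87 in HFD and 6.79, 5.75 and 7.67 in the gavaged group. It was called between gavaged and HFD only (0.73, SE 0.18, limma adjusted p = 0.035), and its difference between HFD and control was -0.33 (SE 0.18, limma adjusted p = 0.24), with control replicate 1 inside the HFD range. Endothelium also expresses Ednrb, and the summed level of 5 endothelial genes was 21.5 to 26.2 FPKM in HFD and 13.9 to 20 in the gavaged group.

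The 12 pan-neuronal genes had the lowest sums in HFD, at 52.3, 49 and 49.4 FPKM in replicates 1, 2 and 4. The sums were 221, 121 and 89.4 in control replicates 1, 2 and 3 and 176, 85.5 and 135 in gavaged replicates 1, 3 and 4. The HFD libraries lay within a narrow range below all others, whereas the other groups each spanned more than the gap to HFD. All 12 differences between HFD and control were below 0, with a median of -0.92, and 6 were called. All 12 between gavaged and HFD were above 0, with a median of 0.91, and 4 were called. Elavl3 and Nefm passed the level filter with no HFD library at 0.5 FPKM, so their inclusion was not independent of the groups, and neither was called.

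The cytoskeletal genes Tubb3, Stmn3 and Prph had the widest differences of the class between HFD and control. Between gavaged and HFD the widest were those of Stmn3 and Uchl1 (1.50 and 1.49). Tubb3, the neuronal beta-tubulin, stood at 30.4, 19 and 13.3 FPKM in control, 6.82, 4.89 and 6.6 in HFD and 21.6, 11 and 16.9 in the gavaged group. Its differences were -1.56 (SE 0.31, limma adjusted p = 0.01) between HFD and control and 1.26 (SE 0.31, limma adjusted p = 0.033) between gavaged and HFD. Stmn3, a stathmin that binds tubulin, stood at 30.7, 14.4 and 13.3 FPKM in control, 6.01, 5.3 and 5.33 in HFD and 26, 11.5 and 17.6 in the gavaged group. Both its differences were called (-1.55 and 1.50, SE 0.34 each, limma adjusted p = 0.015 and 0.023). For Tubb3 and Stmn3 alike, each HFD library was below each library of the other groups. Prph, the intermediate filament of peripheral neurons, stood at 44.5, 21.8 and 18.5 FPKM in control, 8.83, 9.59 and 7.2 in HFD and 27.4, 12.5 and 22 in the gavaged group. It was called between HFD and control (-1.52, SE 0.35, limma adjusted p = 0.018) and not between gavaged and HFD (1.12, SE 0.35, limma adjusted p = 0.075). The neurofilament genes Nefl and Nefm, whose exons overlap in the annotation used, ranged from 1.5 to 4.09 and from 0.385 to 1.64 FPKM and were not called in either comparison.

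Uchl1, which encodes the neuronal deubiquitinase PGP9.5, was the most abundant of the class. It stood at 54.3, 34.7 and 20.7 FPKM in control, 12.3, 11.6 and 13.5 in HFD and 52, 22.2 and 42.6 in the gavaged group, and both differences were called (-1.38 and 1.49, SE 0.37 each, limma adjusted p = 0.032 and 0.033). Control and gavaged libraries overlapped with each other and not with HFD. Snap25, a membrane fusion protein of synaptic vesicle release, stood at 10.7, 4.8 and 2.93 FPKM in control, 2.47, 2.19 and 2.54 in HFD and 10.6, 5.38 and 7.24 in the gavaged group. It was called between gavaged and HFD (1.32, SE 0.37, limma adjusted p = 0.049) but not between HFD and control (-0.92, SE 0.37, limma adjusted p = 0.11).

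Of the remaining pan-neuronal genes, Gap43 and Stmn2 were called in 1 comparison. Gap43, a growth cone protein, and Stmn2 were lower in HFD than in control (-1.01, SE 0.26, limma adjusted p = 0.025, and -0.92, SE 0.28, limma adjusted p = 0.049) and were not called between gavaged and HFD (0.77 and 0.87, limma adjusted p = 0.088 and 0.079). The synaptic calcium sensor gene Syt1 and the RNA-binding protein genes Elavl3 and Elavl4 were called in neither, with differences between HFD and control of -0.65, -0.30 and -0.51. Between gavaged and HFD these were 0.68, 0.30 and 0.95.

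**Figure D2:**
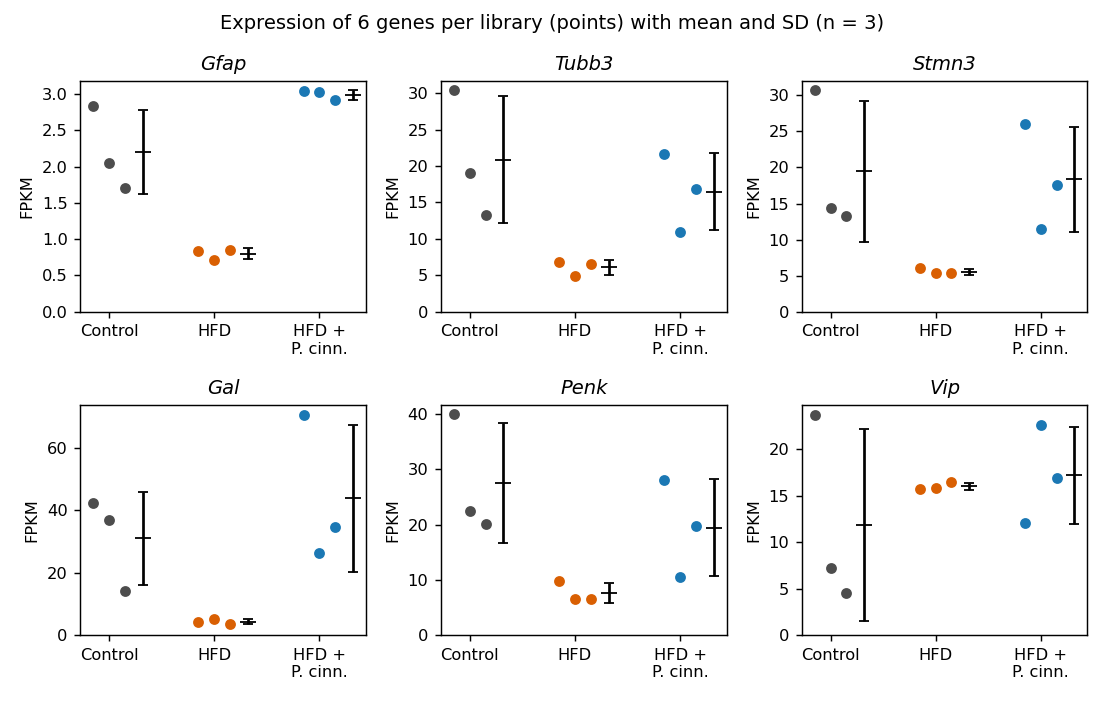
FPKM of 6 genes in each library (points, in order of replicate number) with the mean and SD of each group (n = 3 libraries). For Gfap, Tubb3, Stmn3, Gal and Penk the highest HFD value lies below the lowest value of control and of the gavaged group, whereas for Vip the 3 HFD values, at 15.8 to 16.5, lie within the range of both.

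The widest difference of the 31 genes was that of Gal, which encodes galanin, a neuropeptide of submucosal and myenteric neurons. It stood at 42.3, 36.8 and 14.1 FPKM in control, 4.2, 5.24 and 3.7 in HFD and 70.5, 26.3 and 34.7 in the gavaged group. The mean was 31.1 ± 15 FPKM in control, 4.38 ± 0.785 in HFD and 43.8 ± 23.5 in the gavaged group (SD, n = 3 libraries), so control was 7.1-fold above HFD. The differences were -2.45 (SE 0.44, limma adjusted p = 0.0064) between HFD and control and 2.95 (SE 0.44, limma adjusted p = 0.0033) between gavaged and HFD. Both calls held under all 19 alternative settings.

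Other peptide genes and a calcium-binding protein gene were also lowest in HFD. Penk, the precursor of enkephalins, stood at 39.9, 22.4 and 20.1 FPKM in control, 9.82, 6.55 and 6.61 in HFD and 28, 10.6 and 19.7 in the gavaged group. It was lower in HFD than in control (-1.67, SE 0.36, limma adjusted p = 0.013), and the difference between gavaged and HFD was not called (1.16, SE 0.36, limma adjusted p = 0.072). Tac1, the precursor of substance P, stood at 23.5, 9.84 and 9.29 FPKM in control, 4.58, 4.86 and 5.11 in HFD and 18.1, 9.43 and 10.4 in the gavaged group. Like Penk, it was called between HFD and control (-1.26, SE 0.34, limma adjusted p = 0.034) and not between gavaged and HFD (1.17, SE 0.34, limma adjusted p = 0.059). Calb2, which encodes the calcium-binding protein calretinin of excitatory neurons, stood at 34.3, 21.7 and 13.9 FPKM in control, 11.4, 11.5 and 8.68 in HFD and 24.8, 19.7 and 25.3 in the gavaged group. Both its differences were called (-1.0 and 1.08, SE 0.28 each, limma adjusted p = 0.039 and 0.04).

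The 2 genes that mark inhibitory neurons were not called in either comparison. Vip, for vasoactive intestinal peptide, stood at 23.7, 7.29 and 4.56 FPKM in control, 15.8, 15.9 and 16.5 in HFD and 12.1, 22.6 and 16.9 in the gavaged group. The 3 HFD values were close together and lay between control replicate 1 and the other controls. Vip was not called between HFD and control (0.71, SE 0.47, limma adjusted p = 0.32), but without control replicate 1 it was called higher in HFD (1.33, SE 0.25, limma adjusted p = 0.0072). Nos1, the neuronal nitric oxide synthase, stood at 7.7, 3.01 and 2.33 FPKM in control, 2.67, 2 and 2.15 in HFD and 5.39, 3.74 and 3.74 in the gavaged group. HFD replicate 1 lay above control replicate 3, and neither difference was called (-0.58 and 0.68, SE 0.32 each, limma adjusted p = 0.23 and 0.21).

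The cholinergic genes were low. Slc18a3, the vesicular acetylcholine transporter, stood at 5.63, 2.93 and 2 FPKM in control, 1.44, 0.786 and 0.71 in HFD and 4.42, 2.31 and 1.79 in the gavaged group. It was lower in HFD than in control (-1.13, SE 0.33, limma adjusted p = 0.044), and its difference between gavaged and HFD was not called (0.92, limma adjusted p = 0.11). Chat, the enzyme that makes acetylcholine, was too low to be tested, at 0.211 to 0.65 FPKM in control, 0.206 to 0.351 in HFD and 0.37 to 0.548 in the gavaged group, which correspond to 15 to 52 fragments per library. Th, the enzyme of catecholamine synthesis, rested on 1 to 8 fragments per library and reached 0.193 FPKM at most. Npy, for neuropeptide Y, stood at 0.312, 0 and 0 FPKM in control, 0.942, 0.887 and 0.202 in HFD and 0, 0 and 0.201 in the gavaged group. These values correspond to 0 to 10 fragments. Th and Npy were below the level filter and were not tested, and so few fragments leave any difference uncertain.

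**Figure D3:**
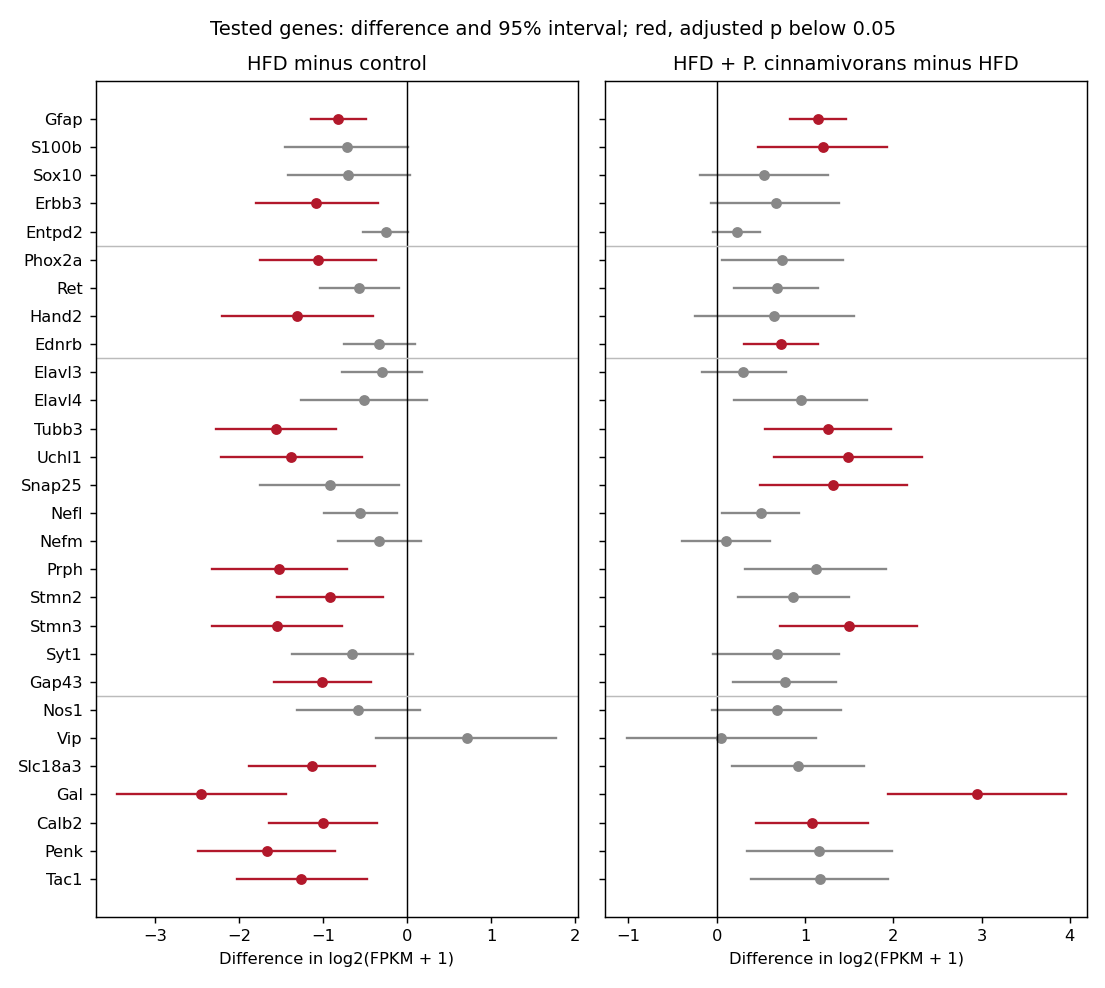
Difference in log2(FPKM + 1) of the 28 tested genes with its 95% interval, between HFD and control (left) and between the gavaged group and HFD (right), with called genes in red. The points run from -2.45 for Gal to 0.71 for Vip on the left and from 0.05 for Vip to 2.95 for Gal on the right, and both panels use the same 3 HFD libraries.

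By role, 2 of 5 glial, 2 of 4 lineage, 6 of 12 pan-neuronal and 5 of 7 tested transmitter genes were called lower in HFD, with medians of -0.72, -0.81, -0.92 and -1.13. Over all tested genes 9.11% were called lower. Without control replicate 1 these medians were -0.35, -0.67, -0.60 and -0.81. Between gavaged and HFD, 2, 1, 4 and 2 genes of the same classes were called higher, with medians of 0.67, 0.70, 0.91 and 1.08, beside 4.54% of all tested genes. No difference between classes was tested. The sum of Gfap, S100b and Sox10, which were picked after their levels had been seen, was 6.68% to 7.51% of the pan-neuronal sum in control, 8.84% to 10.1% in HFD and 8.46% to 11% in the gavaged group, so that the HFD and gavaged ranges overlapped and both lay above control.

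Smooth muscle genes, whose layers enclose the myenteric plexus, were not called in either comparison. The summed level of 10 muscle genes was 7120, 1950 and 1390 FPKM in control, 1530, 1480 and 1370 in HFD and 3340, 1840 and 2070 in the gavaged group. For HFD against control, 0 of the 10 muscle genes were called by limma and 0 had an unadjusted p below 0.05, with a median of -0.81 that became -0.12 without control replicate 1, beside -0.60 over the tested pan-neuronal genes in that fit. For gavaged against HFD, 0 of 10 were called and 1 had an unadjusted p below 0.05, with a median of 0.58. As a share of the muscle sum, the pan-neuronal sum was 3.1%, 6.23% and 6.45% in control, 3.43%, 3.3% and 3.62% in HFD and 5.27%, 4.65% and 6.54% in the gavaged group. The HFD shares were below those of the gavaged group and of control replicates 2 and 3, and above that of control replicate 1. Elavl4 was 0.0799% to 0.128% of the muscle sum in control and 0.101% to 0.139% in HFD. In the gavaged group it was 0.162% to 0.222%. The sum of Gfap, S100b and Sox10 was 0.233% to 0.461% of the muscle sum in control, 0.292% to 0.367% in HFD and 0.446% to 0.604% in gavaged. For both, the HFD range overlapped that of control and lay below that of the gavaged group. The part of muscle content in the neuronal differences was not tested.

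**Figure D4:**
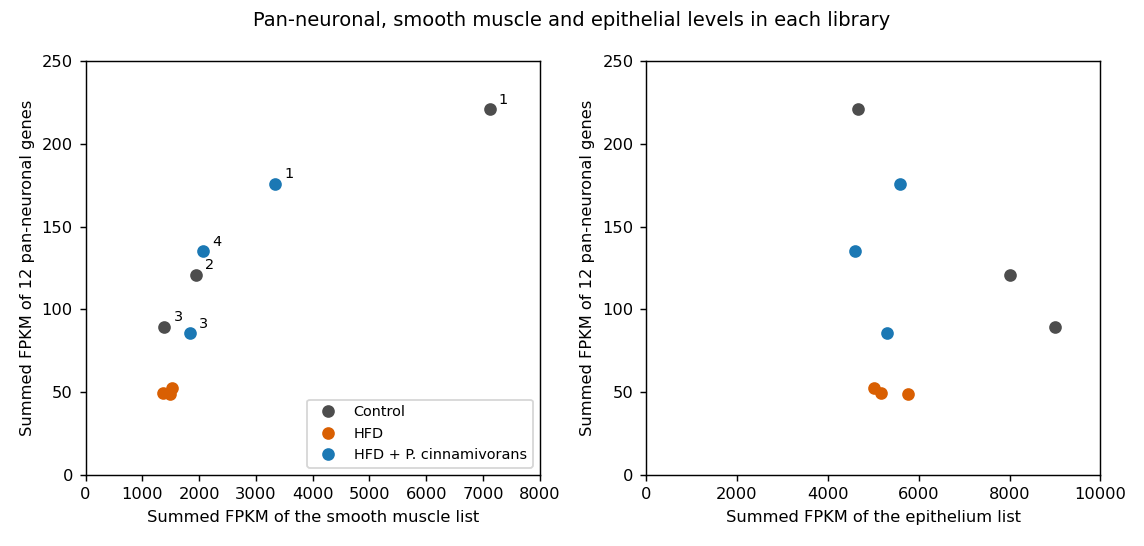
Summed FPKM of the 12 pan-neuronal genes in each library (vertical axes) against that of 10 smooth muscle genes (left, replicate numbers given except for HFD) and of 8 epithelial genes (right). Control replicates 3 and 2 and gavaged replicate 3 have muscle sums of 1390, 1950 and 1840, near the 1370 to 1530 of HFD, with pan-neuronal sums of 89.4, 121 and 85.5 against 49 to 52.3.

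Other cell types also differed between the groups. The 6 genes of B cells and plasma cells were all called higher in HFD than in control (summed 883 to 1120 FPKM against 109 to 189), and 5 of them lower in gavaged than in HFD. Kit, the defining receptor of interstitial cells of Cajal, the pacemaker cells beside the myenteric neurons, stood at 17.4, 8.07 and 7.2 FPKM in control, 6.58, 5.59 and 6.66 in HFD and 12.7, 13.2 and 11.8 in the gavaged group. It was not called in either comparison (-0.61 and 0.90, SE 0.27 each, limma adjusted p = 0.14 and 0.063). Of the 4 interstitial-cell genes tested, 2 were called higher in HFD than in control and 1 lower in gavaged than in HFD, the opposite direction to the values of Kit. Thbs4 stood at 15.7, 3.13 and 3.31 FPKM in control, 98.7, 109 and 92.3 in HFD and 4.39, 8.72 and 2.21 in the gavaged group (3.91 and -4.19, SE 0.55 each, limma adjusted p = 0.002 and 0.0017). Ano1, the chloride channel of these cells, stood at 17.3, 7.17 and 5.07 FPKM in control, 23.9, 24.6 and 27.2 in HFD and 13.7, 10.7 and 12.6 in the gavaged group, and was called between HFD and control alone (1.44, SE 0.34, limma adjusted p = 0.02). Among the 11 enteroendocrine genes, whose cells share peptides and vesicle proteins with neurons, 10 were tested, and in each of the 2 comparisons 1 was called higher and 1 lower. Sst, the precursor of somatostatin, stood at 139, 122 and 92.1 FPKM in control, 16.5, 16.3 and 14.7 in HFD and 170, 81.4 and 121 in the gavaged group (-2.80 and 2.84, SE 0.26 each, limma adjusted p = 0.00025 and 0.00029). Pyy, the precursor of peptide YY, stood at 113, 48 and 41.9 FPKM in control, 162, 194 and 138 in HFD and 57.6, 55.9 and 44.1 in the gavaged group (1.40 and -1.63, SE 0.34 each, limma adjusted p = 0.021 and 0.015). Insl5, a peptide of colonic endocrine cells, stood at 73.6, 1.09 and 1.19 FPKM in control, 104, 115 and 120 in HFD and 3.66, 26 and 2.99 in the gavaged group and was not called (limma adjusted p = 0.06 and 0.094). Chga, the granule protein of these cells, stood at 10.5 to 17 FPKM in control, 10.7 to 16.7 in HFD and 12 to 15.1 in the gavaged group. Of 5 tested genes of T cells and innate lymphoid cells, 4 were called higher in HFD than in control and 1 lower in gavaged than in HFD, with sums over the list of 6.62 to 12.9 FPKM in control, 17.5 to 20.4 in HFD and 13.3 to 13.9 in the gavaged group. Cma1, a mast cell protease, stood at 0, 0.424 and 0 FPKM in control, 9.39, 12.9 and 14.6 in HFD and 0, 0.0551 and 0.157 in the gavaged group, and was called in both comparisons (limma adjusted p = 0.000026 and 0.000023). It passed the level filter through the HFD libraries alone, so its inclusion was not independent of the groups. The mast cell list was not uniform. Untested Mcpt4 was also highest in HFD (0.464 to 1.41 FPKM, 0 to 0.417 elsewhere). Untested Tpsb2 overlapped between HFD (0.107 to 0.468) and control (0.166 to 0.29), and untested Cpa3 was highest in gavaged replicate 3 (0.752). Kit, also on that list, ran the other way. The 6 adipocyte genes summed to 38.7, 562 and 109 FPKM in control, 68.2, 9.17 and 5.96 in HFD and 55.8, 156 and 172 in the gavaged group. Their medians were -2.57 for HFD against control, with 1 gene called lower, and 2.49 for gavaged against HFD, with 0 called by limma and 2 at an unadjusted p below 0.05. The part of these cell types and of the Hox difference in the neuronal and glial values was not tested.

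Of 88 further genes of the enteric nervous system, 73 were tested. Between HFD and control 12 were lower and 3 higher, with a median of -0.42, and between gavaged and HFD 14 were higher and 3 lower, with a median of 0.50. Over all tested genes 9.11% were called lower and 10.6% higher in the first comparison, and 4.54% higher and 7.6% lower in the second. Between gavaged and control 0 were called by limma and 6 had an unadjusted p below 0.05. Of 31 further pan-neuronal genes tested, 3 were lower in HFD than in control, and of 10 further glial genes 1, with medians of -0.39 and -0.24, counts near the 9.11% called lower over all tested genes. Between gavaged and HFD, 2 of these 31 and 0 of these 10 were called higher, beside 4.54% of all tested genes. Their medians were 0.50 and 0.34. Of the 14 genes called higher there, 9 were among the 21 tested further neurotransmitter and subtype genes. The widest called differences were in peptides and receptors, and some of these genes are also known in epithelial endocrine cells. Nts, Tacr3, Pdyn, Galr1, Oprk1 and Scn3b passed the level filter with no HFD library at 0.5 FPKM. Their inclusion was therefore not independent of the groups, and of these Nts and Tacr3 are among the called genes.

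Nts, the precursor of neurotensin, a peptide of endocrine cells as well as neurons, stood at 1.93, 26.3 and 14.9 FPKM in control, 0.214, 0 and 0.0458 in HFD and 49.7, 26.9 and 35.4 in the gavaged group (-3.32, SE 0.68, limma adjusted p = 0.011, and 5.10, SE 0.68, limma adjusted p = 0.0018). Grp, gastrin-releasing peptide of enteric neurons, stood at 26.3, 10 and 5.55 FPKM in control, 1.81, 2.34 and 1.93 in HFD and 18, 7.68 and 7.09 in the gavaged group (-2.06, SE 0.50, limma adjusted p = 0.021, and 1.87, SE 0.50, limma adjusted p = 0.042). Chrnb4, a nicotinic receptor subunit, stood at 4.98, 4.96 and 4.95 FPKM in control, 1.33, 0.779 and 1.01 in HFD and 5.19, 6.09 and 5.09 in the gavaged group (-1.56, SE 0.13, limma adjusted p = 0.00016, and 1.67, SE 0.13, limma adjusted p = 0.00013). Its 3 control values were nearly equal, whereas control replicate 1 was the highest control for 28 of the 31 genes above. Edn3, the ligand of the receptor encoded by Ednrb, stood at 5.86, 6.35 and 6.62 FPKM in control, 1.13, 1.3 and 0.805 in HFD and 6.35, 3.36 and 2.21 in the gavaged group (-1.81, SE 0.26, limma adjusted p = 0.0022, and 1.18, SE 0.26, limma adjusted p = 0.021). Calcb, a calcitonin gene-related peptide of sensory neurons, was called between gavaged and HFD (1.80, SE 0.46, limma adjusted p = 0.036), with 1.59 to 2.12 FPKM in HFD and 7.25 to 14.2 in the gavaged group.

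The 3 further genes that were higher in HFD were Npy1r, a receptor for neuropeptide Y, Slc6a4, the serotonin transporter, and Ddc, the enzyme that makes serotonin and dopamine from their precursors. Npy1r stood at 5.82 to 6.43 FPKM in HFD against 0.363 to 1.33 in control and 0.725 to 0.974 in the gavaged group (2.01 and -1.92, SE 0.18 each, limma adjusted p = 0.00024 and 0.00037). Slc6a4 stood at 6.34 to 7.87 FPKM in HFD against 0.909 to 1.72 and 0.427 to 0.901 (1.89 and -2.34, SE 0.17 each, limma adjusted p = 0.00023 and 0.00011). Ddc stood at 20 to 22.8 FPKM in HFD against 4.05 to 6.53 and 5.85 to 6.49 (1.85 and -1.61, SE 0.15 each, limma adjusted p = 0.00015 and 0.00031). Gut epithelium is known to express Slc6a4 and Ddc, so these values cannot be assigned to neurons.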

How the data were processed

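The authors deposited 1 table of FPKM values for 9 colon libraries. The submitters' processing notes name HISAT2 2.0.5 and GRCm39. How fragments were counted, with which annotation and whether by strand, is not given in the sources used here. Symbols came from GENCODE M21, on another build, so only promoters carry coordinates. In that annotation exons of Nefl and Nefm overlap each other, and those of Penk, Nos1, Uchl1, Phox2a, Hand2, Entpd2 and Elavl3 overlap another gene. The overlapping gene lies on the opposite strand except for Entpd2 and Elavl3. Reads from a shared stretch may therefore not have been told apart, and how much of each value this concerns was not tested.

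The test was limma 3.58.1 (R 4.3.3) with a mean-variance trend, run on log2(FPKM + 1), which understates changes of low genes. A single fit of all 9 libraries covered the 17907 genes that reached 0.5 FPKM in 3 or more of them. The Benjamini-Hochberg adjustment ran over these genes within each of 3 comparisons, and genes were called at an adjusted p below 0.05. The script was tested on simulated data. FPKM carries no total depth. Relative depth came from the ratios of low values, 98.8% to 99.3% of which were ratios of whole numbers no larger than 20 (tolerance 0.0005, natural log). Fragment numbers are the smallest whole numbers in the ratios of a gene's values. Correlations between libraries of a group were 0.928 to 0.978. Medians and counts over a list of genes are descriptions and no tests. The 31 genes and all lists were chosen with earlier results of these data known. All 31 were to be named, and of the 88 further genes up to 4 per direction and comparison with the largest called difference. The 19 alternatives per comparison covered normalization, scaling, filters, the pseudocount, the variance model, the libraries in the fit, a replicate block and each library left out.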

Additional observations from a re-analysis of the deposited data

How the results depend on the processing

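The 15 genes called between HFD and control became 7 after TPM scaling, 7 with mitochondrially encoded and immunoglobulin genes removed, 7 with no filter on low values, and 3 to 16 with 1 library left out. For gavaged against HFD the 9 became 5 after TPM scaling, 3 with no filter, 18 with only the 6 libraries compared in the fit and 2 to 21 with 1 library left out. For gavaged against control 0 to 2 were called with 1 library left out. With no filter more genes share the adjustment, and with a library left out the fit has fewer samples. Without control replicate 1, however, the number of all genes called rose, from 3535 to 4527 and from 2174 to 3603 in the first 2 comparisons. The cause of the changes in count was not tested for any setting. With 1 library left out, HFD against control calls held in 1 of 9 fits for Erbb3 and in 2 for Hand2 and Stmn2. They held in 3 for Phox2a, Slc18a3 and Calb2, 4 for Uchl1, 5 for Gap43 and 6 for Tac1. For Penk, Prph and Stmn3 they held in 7, and for Gfap, Tubb3 and Gal in 9. Between gavaged and HFD, calls held in 3 for S100b, Uchl1, Snap25 and Calb2. For Ednrb, Tubb3 and Stmn3 they held in 4, and for Gfap and Gal in 9. The median of the tested genes kept its sign in the first 2 comparisons under all 19 settings.

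Replicate numbers did not pair the libraries: deviations from group means correlated at -0.16 to 0.19 between same-numbered libraries. With the replicate number as a block, 15 genes were called in each of the first 2 comparisons and 0 in gavaged against control. In that comparison the block reversed Entpd2 (0.01), Elavl3 (-0.07) and Syt1 (-0.02).

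Reversed signs concerned differences near 0, none of them called. Between HFD and control Entpd2 was 0.00 after TPM scaling, and between gavaged and HFD Vip was -0.15 after it and -0.16 to 0.27 with 1 library left out. Between gavaged and control, quantile normalization reversed Entpd2 (0.05), Elavl3 (-0.03), Stmn3 (0.04) and Syt1 (-0.00), TPM scaling reversed Entpd2 (0.04), Stmn2 (0.02) and Stmn3 (0.02), and removal of mitochondrially encoded and immunoglobulin genes reversed Sox10 (0.03), Entpd2 (0.19), Nefl (0.13), Stmn2 (0.17), Stmn3 (0.17) and Tac1 (0.13). With 1 library left out, that difference ranged from -0.51 to 0.18 for Sox10, -0.11 to 0.03 for Entpd2, -0.03 to 0.36 for Ret, -0.12 to 0.16 for Elavl3, -0.24 to 0.46 for Uchl1, -0.19 to 0.16 for Nefl, -0.37 to 0.05 for Nefm, -0.31 to 0.27 for Stmn2, -0.32 to 0.31 for Stmn3, -0.24 to 0.43 for Syt1, -0.44 to 0.03 for Gap43, -0.17 to 0.52 for Nos1, -0.49 to 0.10 for Slc18a3, -0.23 to 0.39 for Calb2 and -0.36 to 0.32 for Tac1.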
